A study of Caenorhabditis elegans with 16 samples.

Results

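The genes examined here are 10 histone deacetylase and sirtuin genes of the nematode *Caenorhabditis elegans*: *hda-1*, *hda-2*, *hda-3*, *hda-4*, *hda-5*, *hda-6*, *hda-10*, *sir-2.1*, *sir-2.2* and *sir-2.4*. They were taken by gene name from a table of estimated read counts for 21982 genes, and all 10 were found and passed the filter on low counts. Messenger RNA of whole animals was sequenced after polyA selection in 16 libraries, 4 in each of 4 groups. The groups were labelled H3K27ac-deficient and fasted, labelled H3K27ac-deficient and fed, wild type and fasted, and wild type and fed. The labelled-deficient animals carried a *jmjd-3.1* mutation and were grown on bacteria that target *cbp-1* by RNA interference, while N2 (Bristol) wild-type animals were grown on empty vector bacteria. At adult day 1 the animals were fasted or given food ad libitum, and 24 h later, at adult day 2, they were collected. Growth was at 20 °C. Each library came from about 1000 animals, the 4 replicates were independently synchronized, and the labels give batch 1 throughout. The labels name 2 different *jmjd-3.1* alleles, so none is given here. Mutation and RNA interference always occurred together and cannot be told apart.

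Histone deacetylases remove acetyl groups from lysines, among them the histone tail lysines that CBP-type acetyltransferases modify, and they usually work inside corepressor complexes such as NuRD, SIN3 and CoREST. Class I enzymes are mostly nuclear, class II enzymes are larger and often move between cytoplasm and nucleus, and sirtuins need NAD, a cofactor whose level depends on metabolism. In worms HDA-1 is an essential embryonic and germline corepressor, and SIR-2.1 has been studied for its links to diet, stress and the FOXO factor DAF-16.

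Reads of the 2 targets were checked against the labels. *cbp-1*, which encodes a CBP/p300-type acetyltransferase, had 276 ± 30.5 CPM in fasted and 209.6 ± 36.5 CPM in fed labelled-deficient libraries, against 149 ± 18 CPM in fasted and 103 ± 16.9 CPM in fed wild type (SD, n = 4 each). CPM is the estimated count at a common library size of 1 M reads, after scaling by the trimmed mean of M values (TMM). *jmjd-3.1*, which encodes an H3K27 demethylase, had 21.9 ± 0.921 CPM in fasted and 17.4 ± 2.71 CPM in fed labelled-deficient libraries, against 20.0 ± 2.65 CPM in fasted and 12.3 ± 0.398 CPM in fed wild type (SD, n = 4 each). Neither target was lower, so the genotype is called "labelled-deficient" throughout and every direction between genotypes rests on that label. Library totals were 16.4 to 27.8 M estimated reads, and a library held between 129 and 6071 reads of any 1 of the 10 genes, which limits precision most for *sir-2.2*. In whole-animal RNA, fewer cells of a type and less RNA per cell cannot be told apart.

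The genes lie on 5 chromosomes (WBcel235, Ensembl release 115). The class I genes are *hda-1* (WBGene00001834, chromosome V, 14525389 to 14527411), *hda-2* (WBGene00001835, II, 8020780 to 8022561) and *hda-3* (WBGene00001836, I, 11912793 to 11917712). The class II genes are *hda-4* (WBGene00001837, X, 16729559 to 16744767), *hda-5* (WBGene00009663, II, 11799037 to 11802409), *hda-6* (WBGene00018319, IV, 5356543 to 5364306) and *hda-10* (WBGene00001838, II, 13882705 to 13888034). The sirtuin genes are *sir-2.1* (WBGene00004800, IV, 10363318 to 10366229), *sir-2.2* (WBGene00004801, X, 13328067 to 13331263) and *sir-2.4* (WBGene00004803, I, 5990741 to 5992665). *sir-2.2* is followed on the same strand, 422 bases downstream, by its paralogue *sir-2.3*, and reads may have been exchanged between these similar genes. *hda-6* overlaps the opposite-strand gene F41H10.5 by 1252 bases. The strand setting of the counting is not stated, so reads of the overlap cannot be assigned with certainty. F41H10.5 averaged 2.02 CPM in fasted and 1.36 CPM in fed labelled-deficient libraries, against 1.61 CPM in fasted and 1.34 CPM in fed wild type, and was called in none of the comparisons below.

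Levels of different genes were compared per transcript length, in TPM, the transcript abundance normalised for length and library size, summed over a gene's transcripts. In fasted labelled-deficient libraries the order was *hda-1* at 112 ± 8.81 TPM, *sir-2.1* at 68.3 ± 3.64, *hda-6* at 64.8 ± 7.21, *sir-2.4* at 62.8 ± 6.29, *hda-3* at 59.8 ± 2.67, *hda-2* at 29.3 ± 1.40, *hda-10* at 25.1 ± 2.82, *hda-5* at 12.5 ± 0.946, *sir-2.2* at 9.34 ± 1.76 and *hda-4* at 5.17 ± 0.454 TPM (SD, n = 4). The 4 genes from *sir-2.1* to *hda-3* did not differ from their neighbours in this order beyond 1 SD, and neither did *hda-2* from *hda-10*. In fed labelled-deficient libraries *hda-1* was again first, at 81.8 ± 14.9 TPM, and the next 4 were *sir-2.1* at 62.9 ± 6.13, *sir-2.4* at 59.3 ± 6.07, *hda-3* at 52.7 ± 5.03 and *hda-6* at 41.7 ± 8.03 TPM (SD, n = 4), each overlapping the next within 1 SD. In fasted wild type *hda-1* at 58.3 ± 3.57, *sir-2.1* at 51.8 ± 3.04 and *sir-2.4* at 50.5 ± 5.13 TPM overlapped likewise, and *hda-3* followed at 34.5 ± 1.08 TPM (SD, n = 4). In fed wild type the highest was *sir-2.4*, at 56.3 ± 12.8 TPM, followed by *hda-1* at 40.9 ± 7.92 and *sir-2.1* at 39.7 ± 8.01 TPM (SD, n = 4), 3 genes whose SD ranges overlapped. *hda-4* was lowest in all 4 groups, with group means of 5.17 and 4.16 TPM in fasted and fed labelled-deficient libraries and 5.46 and 4.02 TPM in fasted and fed wild type.

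Summed over the 10 genes, the level was 449 ± 17.5 TPM in fasted and 367 ± 27.5 TPM in fed labelled-deficient libraries, against 290.2 ± 14.7 TPM in fasted and 248 ± 29.2 TPM in fed wild type (SD, n = 4 each). The class I genes made up 44.8% ± 2.03 of that sum in fasted and 44.0% ± 2.84 in fed labelled-deficient libraries, against 37.9% ± 0.515 in fasted and 34.1% ± 2.99 in fed wild type (SD, n = 4 each). The sirtuins made up 31.3% ± 2.47 in fasted and 36.2% ± 4.44 in fed labelled-deficient libraries, against 39.2% ± 0.800 in fasted and 46.2% ± 4.95 in fed wild type (SD, n = 4 each). No sirtuin share of a labelled-deficient fasted library reached that of any fed wild-type library. The sums carry no test, and TPM moved the median of all genes between groups upward, as described with the scalings.

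**Figure D1:**
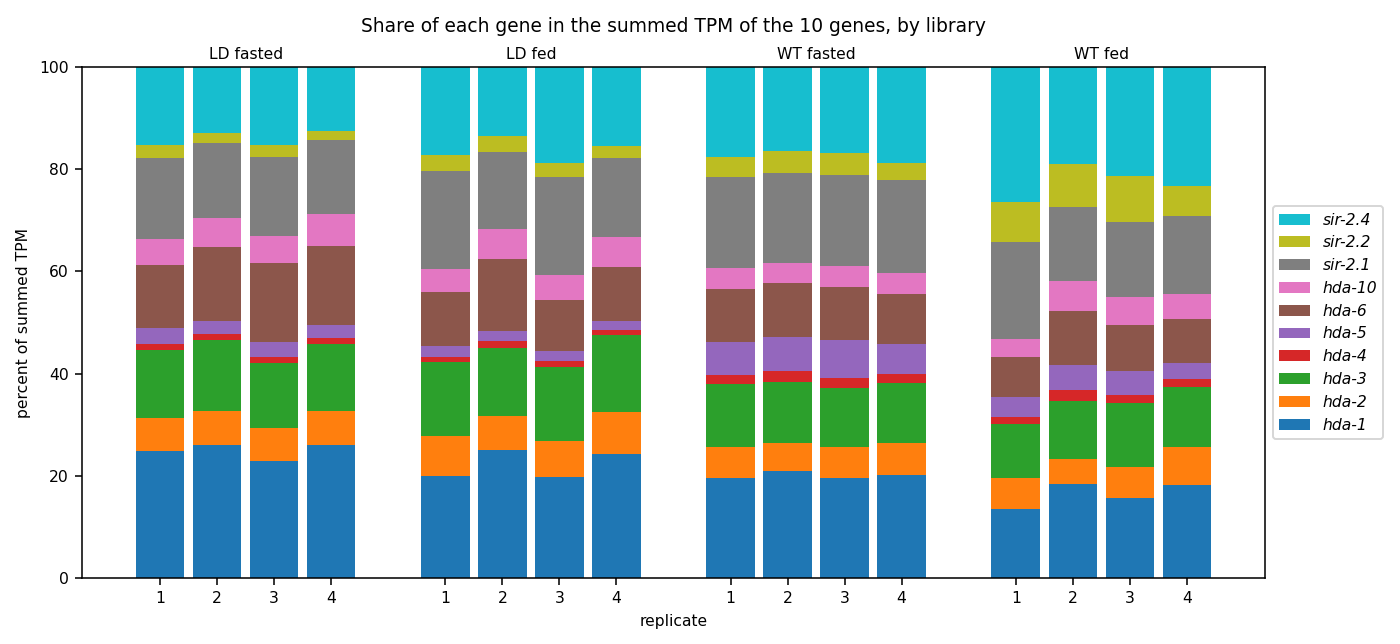
Each bar is 1 library, split by the share of each of the 10 genes in their summed TPM (percent). LD, labelled H3K27ac-deficient. The class I share (*hda-1*, *hda-2*, *hda-3*, the lowest 3 blocks) spanned 42.0% to 46.7% in fasted labelled-deficient libraries and 30.2% to 37.5% in fed wild type.

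The first comparison asked how the genes differed between labelled-deficient and wild-type animals after fasting. A gene is called changed at an adjusted p under 0.05 in the edgeR quasi-likelihood test, with Benjamini-Hochberg adjustment over all 15840 genes tested. By this rule 8 of the 10 genes were called, 5 higher and 3 lower in labelled-deficient libraries. The background was high, with 57.5% of all tested genes called, 28.2% higher and 29.3% lower. In fed animals 8 of 10 were again called, 4 higher and 4 lower, against a background of 56.2%, with 24.6% higher and 31.7% lower. The median log2 change of the 10 genes was 0.32 when fasted and 0.25 when fed, beside -0.04 and -0.08 for all tested genes. The list itself was not tested, and the account below is of single genes. At the stricter rule of a call and at least a 2-fold change, *hda-6* alone passed when fasted, against a background of 20.3%, and *sir-2.2* alone when fed, against 20.9%.

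All 3 class I genes were higher in labelled-deficient libraries in both feeding states. *hda-1*, related to human HDAC1 and HDAC2, had 233, 241, 208 and 263 CPM in the 4 fasted labelled-deficient libraries and 139, 146, 140.5 and 154 CPM in the 4 fasted wild-type libraries. These groups did not overlap, and the log2 difference was 0.70 (SE 0.13; edgeR adjusted p 0.000106). When fed it had 167, 217, 151 and 227 CPM in labelled-deficient libraries, against 105, 131, 111 and 151.5 CPM in wild type. The log2 difference was 0.61 (SE 0.13; edgeR adjusted p 0.000526). The groups met at their edge, labelled-deficient replicate 3 lying just below wild-type replicate 4.

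*hda-2*, a second HDAC1-like gene, had 48.2, 49.4, 46.1 and 52.9 CPM in fasted labelled-deficient libraries, against 34.6, 30.8, 35.1 and 37.9 CPM in fasted wild type, without overlap. In fed libraries it had 53.97, 46.0, 43.5 and 60.3 CPM in labelled-deficient animals, against 38.4, 27.7, 34.1 and 49.1 CPM in wild type, where the groups overlapped. The log2 differences were 0.51 when fasted (SE 0.14; edgeR adjusted p 0.00354) and 0.45 when fed (SE 0.14; edgeR adjusted p 0.00963).

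*hda-3*, the remaining class I gene, separated the genotypes in both feeding states. It had 115, 119, 107.5 and 123.5 CPM in fasted labelled-deficient libraries, against 81.8, 77.0, 77.7 and 82.6 CPM in fasted wild type. It had 112, 109.7, 105 and 131 CPM in fed labelled-deficient libraries, against 77.6, 76.7, 83.9 and 92.6 CPM in fed wild type. Every labelled-deficient library was above every wild-type library of the same feeding state, with log2 differences of 0.54 when fasted (SE 0.10; edgeR adjusted p 5.9e-05) and 0.47 when fed (SE 0.10; edgeR adjusted p 0.000336). Across the 4 group means *hda-2* and *hda-3* were the most alike pair among the 10 genes, at a distance of 0.056 on the log2 scale after each gene was centred.

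The class II genes moved in different directions. *hda-6*, related to the tubulin deacetylase HDAC6, showed the largest genotype difference of the 10 genes after fasting. It had 186, 189, 172 and 196 CPM in fasted labelled-deficient libraries, against 73.6, 82.7, 82.4 and 79.3 CPM in fasted wild type. In fed libraries it had 129.9, 152, 105 and 156 CPM in labelled-deficient animals, against 79.0, 87.3, 80.3 and 100.8 CPM in wild type. Neither pair of groups overlapped, and the log2 differences were 1.23 when fasted (SE 0.12; edgeR adjusted p 1.51e-08) and 0.64 when fed (SE 0.12; edgeR adjusted p 7.94e-05).

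*hda-10* was higher when fasted, with 50.0, 55.0, 49.9 and 65.4 CPM in labelled-deficient libraries and 29.9, 27.7, 29.5 and 32.6 CPM in wild type. Those groups did not overlap, and the log2 difference was 0.88 (SE 0.16; edgeR adjusted p 5.97e-05). When fed it had 36.9, 54.6, 41.0 and 59.2 CPM in labelled-deficient libraries, against 27.5, 47.2, 42.3 and 44.2 CPM in wild type. The fed groups overlapped, with a log2 difference of 0.25, with SE 0.16 and an edgeR adjusted p of 0.183. With the replicate number as a block the same difference of 0.25 was called (edgeR adjusted p 0.0421). The labels do not state that the numbers pair libraries. The fed difference was larger and called with library size alone, at 0.54, and with TPM, at 0.655 (edgeR adjusted p 0.00172 and limma adjusted p 0.000627).

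*hda-5* went the other way. It had 22.7, 19.98, 21.4 and 20.98 CPM in fasted labelled-deficient libraries, against 36.6, 37.3, 41.5 and 35.7 CPM in fasted wild type. It had 13.9, 14.1, 12.7 and 13.99 CPM in fed labelled-deficient libraries, against 24.5, 29.4, 27.4 and 21.7 CPM in fed wild type. Every labelled-deficient library was below every wild-type library of the same feeding state, with log2 differences of -0.83 when fasted (SE 0.11; edgeR adjusted p 7.75e-07) and -0.91 when fed (SE 0.11; edgeR adjusted p 2.96e-07). The ratio of *hda-6* to *hda-5* in TPM was 5.22 ± 0.808 in fasted and 5.77 ± 0.951 in fed labelled-deficient libraries, against 1.57 ± 0.103 in fasted and 2.21 ± 0.369 in fed wild type (SD, n = 4 each).

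*hda-4*, the class IIa gene that acts with the kinase KIN-29 and the factor MEF-2 in sensory neurons, was lower by a smaller margin. It had 23.9, 19.9, 21.8 and 22.7 CPM in fasted labelled-deficient libraries, against 24.3, 28.8, 28.05 and 28.5 CPM in fasted wild type. It had 16.7, 23.0, 19.4 and 20.7 CPM in fed labelled-deficient libraries, against 21.9, 30.5, 24.5 and 25.5 CPM in fed wild type. The fasted groups stood just apart and the fed groups overlapped, with log2 differences of -0.31 (SE 0.12; edgeR adjusted p 0.0313) and -0.36 (SE 0.12; edgeR adjusted p 0.0157). The fasted call was lost without labelled-deficient replicate 2 or 3 or wild-type replicate 2 or 3, at -0.26 to -0.30 (edgeR adjusted p 0.0633 to 0.102). The fed call was lost without labelled-deficient replicate 1, at -0.28, or wild-type replicate 2, at -0.26 (edgeR adjusted p 0.0638 and 0.0739). With TPM the *hda-4* differences were -0.07 when fasted and 0.044 when fed, neither called by limma. The fed call was also lost with library size alone, at -0.06, and with only the groups compared, at -0.25 (edgeR adjusted p 0.67 and 0.154). With no filter the fasted call was lost, at -0.30 (edgeR adjusted p 0.0564).

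The sirtuins did not move together. *sir-2.1*, related to SIRT1, had 147, 135, 141 and 146 CPM in fasted labelled-deficient libraries, against 127, 123, 129 and 136 CPM in fasted wild type. These groups overlapped at a log2 difference of 0.14, with SE 0.12 and an edgeR adjusted p of 0.321. In fed libraries it had 165, 132, 146 and 141 CPM in labelled-deficient animals, against 157, 103, 105 and 127 CPM in wild type. The log2 difference was 0.25 (SE 0.12; edgeR adjusted p 0.079), and the spread was widest in fed wild type, where replicate 1 stood high. Without that library the difference was 0.39 (edgeR adjusted p 0.00434), and with the replicate block it was 0.26 (edgeR adjusted p 0.0113). The fed difference was also called at 0.29 with DESeq2 and at 0.29 in edgeR with DESeq2 size factors (adjusted p 0.032 and 0.0437). Library size alone gave 0.54 and TPM 0.67, both called (edgeR adjusted p 0.00212 and limma adjusted p 0.000118). With TPM the fasted difference was called too, at 0.40 (limma adjusted p 0.00865).

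*sir-2.2*, a mitochondrial sirtuin of the SIRT4 type, was lower in labelled-deficient libraries and showed the largest fed difference of the 10 genes. It had 10.4, 8.71, 10.5 and 7.69 CPM in fasted labelled-deficient libraries, against 13.3, 13.7, 15.1 and 12.0 CPM in fasted wild type. It had 12.4, 12.6, 9.34 and 10.3 CPM in fed labelled-deficient libraries, against 28.4, 29.2, 29.7 and 22.8 CPM in fed wild type. The groups did not overlap in either state, and the fed wild-type libraries stood far above the other 12. The log2 differences were -0.53 when fasted (SE 0.14; edgeR adjusted p 0.00201) and -1.30 when fed (SE 0.13; edgeR adjusted p 3.38e-08). With TPM the fasted difference was -0.30 and no longer called (limma adjusted p 0.0536). Its paralogue *sir-2.3*, outside the list, was also lower, by -0.52 when fasted and -0.85 when fed on the log2 scale (edgeR adjusted p 0.0137 and 0.000377).

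*sir-2.4*, related to SIRT6 and SIRT7, had 48.9, 42.5, 49.75 and 45.4 CPM in fasted labelled-deficient libraries, against 46.0, 41.15, 43.4 and 51.55 CPM in fasted wild type. The groups overlapped, with a log2 difference of 0.04, SE 0.12 and an edgeR adjusted p of 0.819. When fed it had 50.9, 42.1, 52.0 and 50.0 CPM in labelled-deficient libraries, against 70.0, 48.8, 54.3 and 67.7 CPM in wild type. The fed difference was -0.31 (SE 0.12; edgeR adjusted p 0.0339) with overlapping groups. It was no longer called without labelled-deficient replicate 2 or wild-type replicate 1 or 4 (-0.23 to -0.25; edgeR adjusted p 0.089 to 0.123). Of 8 other settings the call held in 2, limma voom and the replicate block. It was lost with DESeq2 at -0.26, edgeR with DESeq2 size factors at -0.26, no filter at -0.28 and only the groups compared at -0.20 (adjusted p 0.0744, 0.079, 0.0619 and 0.301). It was -0.01 with library size alone and 0.10 with TPM (adjusted p 0.938 and 0.57).

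**Figure D2:**
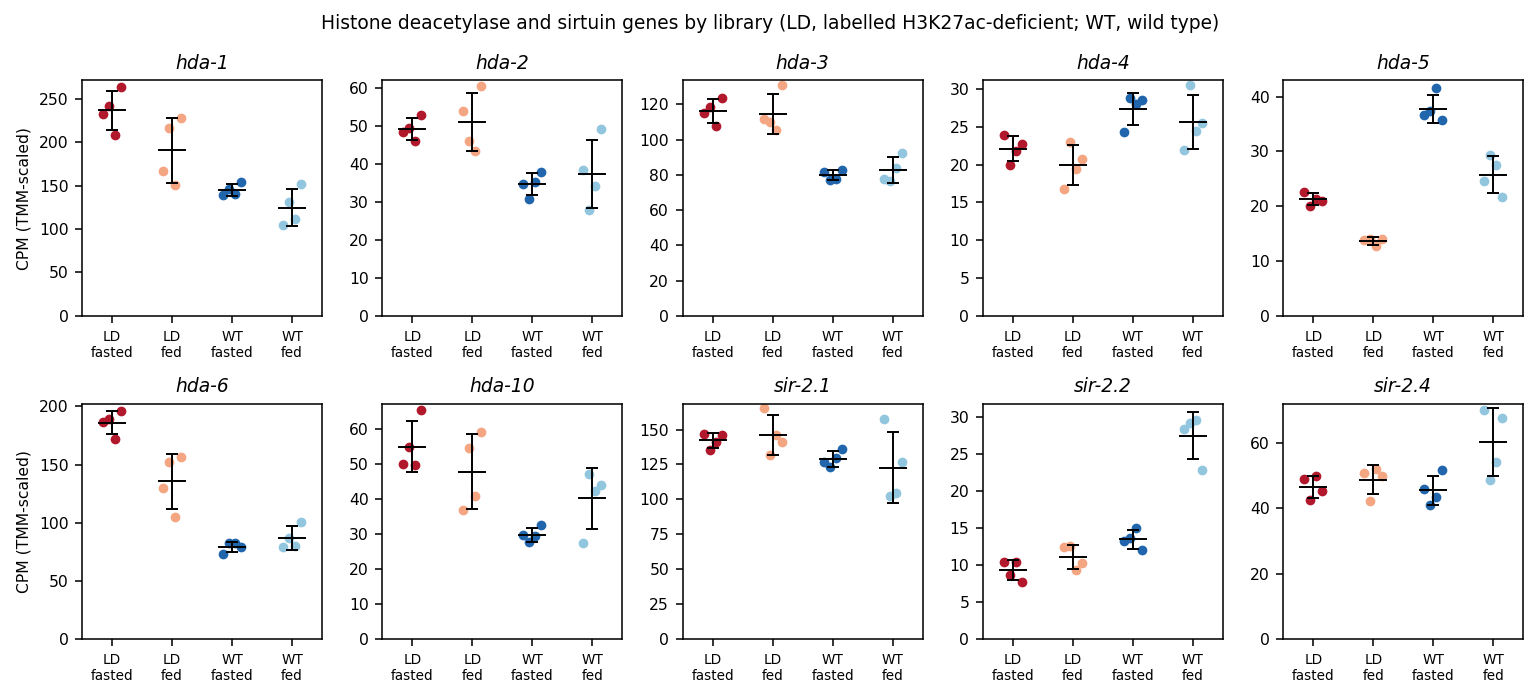
Each panel gives 1 gene in TMM-scaled CPM. Points are libraries, bars are the group mean and SD (n = 4), LD is labelled H3K27ac-deficient and WT is wild type. *hda-6* ranged from 172 to 196 CPM in fasted labelled-deficient libraries and from 73.6 to 82.7 CPM in fasted wild type, while *sir-2.2* was highest in fed wild type, at 22.8 to 29.7 CPM.

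Between genotypes, germline markers were higher where the class I genes, *hda-6* and *hda-10* were higher. The summed level of 10 germline markers was 2236 to 2883 CPM in fasted and 1960 to 2942 CPM in fed labelled-deficient libraries, against 1032 to 1244 CPM in fasted and 1193 to 1743 CPM in fed wild type. Of these markers 10 were higher in labelled-deficient libraries when fasted and 8 when fed, and none was at 0. The summed level of 10 oocyte markers was 5359 to 7636 CPM in fasted and 4888 to 8731 CPM in fed labelled-deficient libraries, against 4513 to 5096 CPM in fasted and 8796 to 14290 CPM in fed wild type. Of the mean oocyte sum of 12100 CPM in fed wild type, *perm-4* gave 4436 CPM and *perm-2* 2568 CPM. In fed labelled-deficient libraries these genes gave 597.5 and 363.2 CPM of 6517 CPM. Of the oocyte markers 8 were higher and 2 lower in labelled-deficient libraries when fasted, and 1 was higher and 2 lower when fed. With wild-type fasting 10 oocyte markers were lower, and 1 germline marker was higher and 5 were lower. Within the fed labelled-deficient group, replicates 2 and 4 were highest in both marker sums and in *hda-1*, *hda-6* and *hda-10*. For *hda-2* and *hda-3*, however, replicates 1 and 4 were highest. Whether germline content took part in these differences was not tested.

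Tissue marker sums were set beside *sir-2.2*, which was highest in fed wild type and lower in labelled-deficient libraries in both states. The summed level of the 6 intestine markers tested was 279 to 300.1 CPM in fasted and 363 to 405 CPM in fed labelled-deficient libraries, against 235.4 to 267 CPM in fasted and 772 to 971 CPM in fed wild type. Like *sir-2.2* this sum was highest in fed wild type, but between fasted genotypes it was higher in labelled-deficient libraries, opposite to *sir-2.2*. Of the 6, none was higher and 5 were lower in labelled-deficient libraries when fed, and 2 were higher and 2 lower when fasted. With fasting, labelled-deficient libraries had 2 higher and 2 lower, and 2 were higher and 4 lower in wild type.

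The marker sums of the following tissues were also highest in fed wild type. The 5 hypodermis markers tested summed to 44.1 ± 1.58 CPM in fasted and 572 ± 96.3 CPM in fed labelled-deficient libraries, against 214 ± 13.7 CPM in fasted and 1840.0 ± 565 CPM in fed wild type (SD, n = 4 each). This sum, unlike that of the intestine, was lower in labelled-deficient libraries in both states, as *sir-2.2* was. Most of it was *col-19*, at 25.35 and 549.7 CPM in fasted and fed labelled-deficient libraries. In fasted and fed wild type *col-19* averaged 190.1 and 1807 CPM. Gene by gene, however, 1 hypodermis marker was higher and 2 lower when fasted, and 3 were higher and 2 lower when fed. The 7 body muscle markers summed to 994.5 ± 50.1 CPM in fasted and 2150.0 ± 252 CPM in fed labelled-deficient libraries, against 1610.0 ± 62.8 CPM in fasted and 2947 ± 527 CPM in fed wild type (SD, n = 4 each). They too were lower in labelled-deficient libraries, none higher and 5 lower when fasted, and 1 higher and 4 lower when fed. The 5 pharynx muscle markers summed to 47.8 ± 6.42 CPM in fasted and 47.5 ± 4.28 CPM in fed labelled-deficient libraries, against 53.6 ± 11.6 CPM in fasted and 86.0 ± 5.7 CPM in fed wild type (SD, n = 4 each). Most of the fed wild-type sum was *tni-4*, at 58.58 CPM. In fasted wild type *tni-4* averaged 23.98 CPM, and 23.96 and 26.38 CPM in fasted and fed labelled-deficient libraries. Means of *myo-1*, *myo-2*, *tnc-2* and *ceh-22* were not highest in fed wild type. Neuron markers, set beside *hda-4*, summed to 469 to 498 CPM in fasted and 436 to 487 CPM in fed labelled-deficient libraries, against 440 to 472 CPM in fasted and 511 to 594 CPM in fed wild type. A large part was *snb-1*, at 288.8 and 267.1 CPM in fasted and fed labelled-deficient libraries. In fasted and fed wild type *snb-1* averaged 258.5 and 251.1 CPM. Of 10 neuron markers 6 were lower in fed labelled-deficient libraries, and 2 were higher and 1 lower in fasted ones. The part of any of these tissues in the sirtuin and *hda-4* values was not tested.

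The next comparison asked how fasting moved the genes within each genotype. In labelled-deficient libraries fasting called 2 of 10 genes, both higher, while 35.3% of all tested genes were called, 19.6% higher and 15.7% lower. In wild type it called 4 of 10, 1 higher and 3 lower, while 61.0% of all tested genes were called, 30.4% higher and 30.6% lower. The median log2 change of the 10 genes was 0.08 in labelled-deficient libraries and -0.08 in wild type, beside 0.11 and 0.01 for all tested genes. At a call and at least a 2-fold change, none of the 10 passed in labelled-deficient libraries, against a background of 10.8%, and *sir-2.2* alone passed in wild type, against 26.8%.

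*hda-5* was the only one of the 10 genes called in both genotypes. It averaged 21.3 ± 1.11 CPM in fasted and 13.7 ± 0.663 CPM in fed labelled-deficient libraries, and 37.8 ± 2.57 CPM in fasted and 25.8 ± 3.37 CPM in fed wild type (SD, n = 4 each). The log2 change with fasting was 0.64 in labelled-deficient libraries (SE 0.11; edgeR adjusted p 7.55e-05) and 0.55 in wild type (SE 0.11; edgeR adjusted p 0.000121), without overlap in either. Both changes kept their sign and their call in all 8 other settings and with any 1 library left out. The interaction, defined by subtracting the wild-type fasting change from the labelled-deficient one, was 0.08 (SE 0.15; edgeR adjusted p 0.703).

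*hda-6* rose with fasting in labelled-deficient libraries, to 186 ± 10.0 CPM in fasted libraries against 136 ± 23.6 CPM in fed libraries (SD, n = 4 each), by 0.45 on the log2 scale, with SE 0.12 and an edgeR adjusted p of 0.00451. In wild type it averaged 79.5 ± 4.21 CPM in fasted and 86.9 ± 9.99 CPM in fed libraries (SD, n = 4 each), at -0.13 on the log2 scale, with SE 0.12 and an edgeR adjusted p of 0.356, and at 0.44 with TPM. *sir-2.2* fell with fasting in wild type, to 13.5 ± 1.26 CPM in fasted libraries against 27.5 ± 3.16 CPM in fed libraries (SD, n = 4 each). Its log2 change there was -1.03 (SE 0.13; edgeR adjusted p 9.13e-07), the largest fasting change of the 10 genes. In labelled-deficient libraries *sir-2.2* averaged 9.32 ± 1.36 CPM in fasted and 11.2 ± 1.60 CPM in fed libraries (SD, n = 4 each), a change of -0.26 (SE 0.14; edgeR adjusted p 0.147).

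*sir-2.4* fell with fasting in wild type, to 45.5 ± 4.48 CPM against 60.2 ± 10.3 CPM in fed wild type (SD, n = 4 each), at -0.40 on the log2 scale, with SE 0.12 and an edgeR adjusted p of 0.00608. *hda-10* fell as well, to 29.9 ± 2.03 CPM in fasted wild type against 40.3 ± 8.76 CPM in fed wild type (SD, n = 4 each), a change of -0.43 (SE 0.16; edgeR adjusted p 0.0247). Both pairs of groups overlapped in 1 or more libraries. The *hda-10* call was lost without fed replicate 2 or 4 or fasted replicate 2 (-0.35 to -0.40; edgeR adjusted p 0.0514 to 0.0829). Scaling by library size alone left both genes near no change, at -0.07 for *sir-2.4* and -0.08 for *hda-10*.

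*hda-1* was not called in either genotype, at 0.31 on the log2 scale in labelled-deficient libraries (SE 0.13; edgeR adjusted p 0.0728) and 0.22 in wild type (SE 0.13; edgeR adjusted p 0.16). In labelled-deficient libraries it was called without fed labelled-deficient replicate 4, at 0.41, or fed wild-type replicate 4, at 0.31 (edgeR adjusted p 0.0241 and 0.0464). In wild type it was called without fed wild-type replicate 4, at 0.32 (edgeR adjusted p 0.041). It was also called in 3 of 8 other settings in both genotypes. These were library size alone, at 0.37 in labelled-deficient libraries and 0.57 in wild type (edgeR adjusted p 0.0152 and 0.000269), TPM, at 0.47 and 0.52 (limma adjusted p 0.00997 and 0.00318), and the replicate block, at 0.32 and 0.23 (edgeR adjusted p 0.0021 and 0.0165).

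*hda-2*, *hda-3*, *hda-4* and *sir-2.1* had log2 values of -0.11 to 0.15 with fasting, and none was called in either genotype with TMM. In wild type this depended on the scaling. With library size alone *hda-3* was called at 0.29, *hda-4* at 0.45 and *sir-2.1* at 0.40 (edgeR adjusted p 0.00815, 0.00125 and 0.0147). With TPM they were called at 0.27, 0.40 and 0.40 (limma adjusted p 0.022, 0.00567 and 0.00816). With TPM *hda-4* was called in labelled-deficient libraries as well, at 0.29 (limma adjusted p 0.0477). Both scalings moved the median of all genes upward, by the values given with the scalings.

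**Figure D3:**
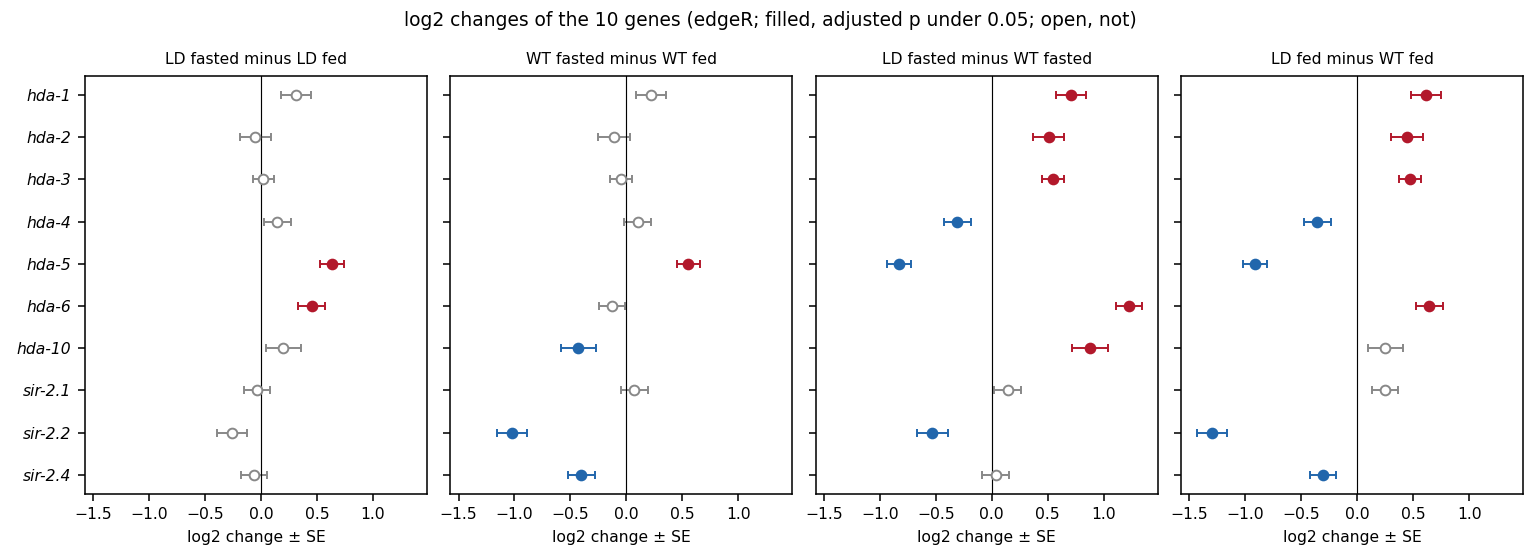
Log2 changes and their standard errors from edgeR for the 10 genes in the 4 pairwise comparisons. Filled points have an adjusted p under 0.05, red higher and blue lower in the group named first. *hda-5* was higher with fasting in both genotypes (0.64 in LD and 0.55 in WT) and lower in LD than in WT in both feeding states (-0.83 when fasted and -0.91 when fed).

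The fasting change differed between genotypes for 3 of the 10 genes, all with a positive interaction, while 25.9% of all tested genes were called, 14.5% positive and 11.4% negative. The interaction was 0.58 for *hda-6* (SE 0.17; edgeR adjusted p 0.0134), 0.77 for *sir-2.2* (SE 0.19; edgeR adjusted p 0.00526) and 0.63 for *hda-10* (SE 0.22; edgeR adjusted p 0.0419). For *hda-6* the labelled-deficient libraries were higher with fasting and wild type was not with TMM. With TPM *hda-6* was called with wild-type fasting too, at 0.44, and its interaction was not called, at 0.20 (limma adjusted p 0.00497 and 0.422). For *sir-2.2* the fed wild-type libraries stood high, and the other 3 groups lay between 7.69 and 15.1 CPM. The *hda-10* call was lost in 10 of 16 fits with 1 library left out and in 5 of 7 other settings. With library size alone, none of the 3 was called (0.29, 0.48 and 0.34; edgeR adjusted p 0.144, 0.088 and 0.196 for *hda-6*, *sir-2.2* and *hda-10*). That scaling moved the median interaction of all genes to -0.22, beside 0.07 with TMM.

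The splits moved with the scaling. TMM factors were 1.07 ± 0.0398 in fasted and 1.04 ± 0.0632 in fed labelled-deficient libraries, against 1.07 ± 0.00714 in fasted and 0.843 ± 0.0416 in fed wild type (SD, n = 4 each). Without TMM the median wild-type fasting change of all tested genes was 0.35, beside 0.01 with it, and the members then split into 5 higher and 1 lower. The fed genotype difference likewise split into 6 higher and 2 lower, with a median over all genes of 0.22. With TPM the median of all genes was 0.21 and 0.28 for fasting in labelled-deficient libraries and in wild type, and 0.15 and 0.25 between genotypes when fasted and when fed. The split with TPM was 6 higher and 1 lower for wild-type fasting, 6 higher and 1 lower between fasted genotypes, and 6 higher and 2 lower between fed genotypes. DESeq2 size factors gave 5 higher and 3 lower between fed genotypes. Directions that held under all 4 scalings included those of the class I genes and *hda-6* (higher in labelled-deficient), of *hda-5* and *sir-2.2* (lower in labelled-deficient), of *hda-5* with fasting, and of *sir-2.2* with fasting in wild type.

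**Figure D4:**
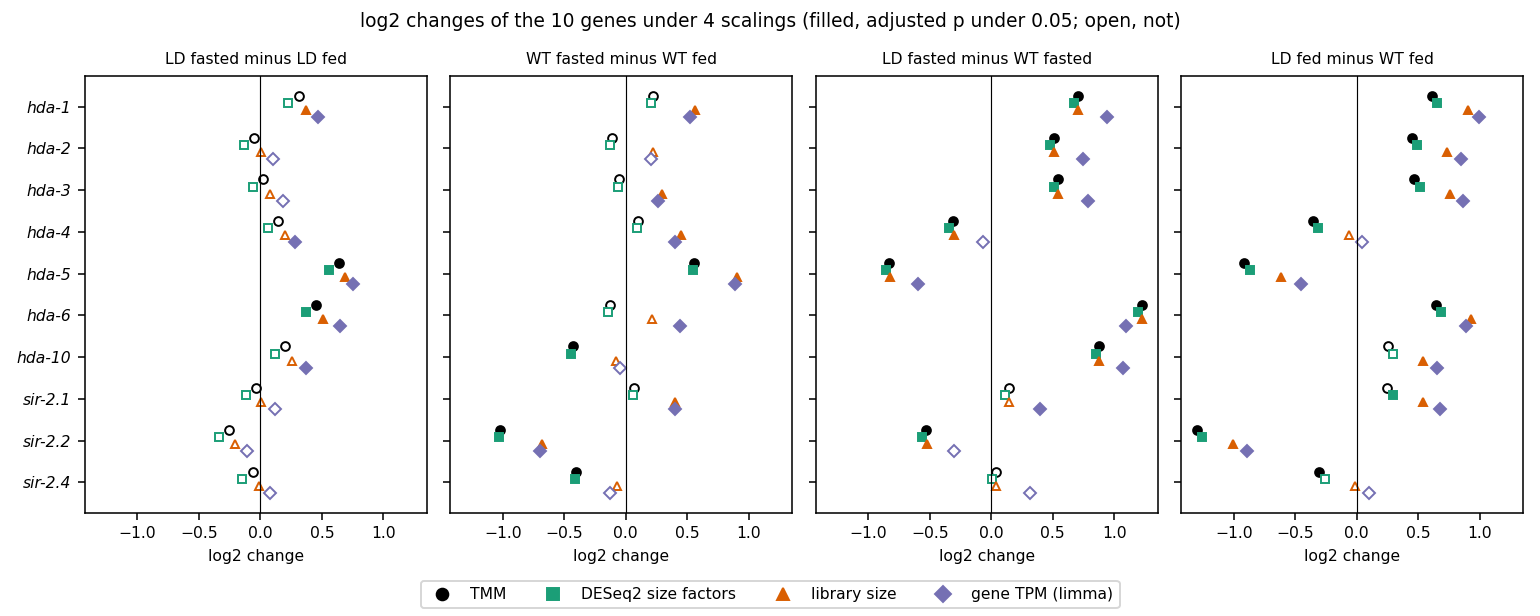
Log2 changes of the 10 genes under 4 scalings: TMM, DESeq2 size factors and library size in edgeR, and TPM in limma. Filled points have an adjusted p under 0.05. Values with library size alone or TPM lay to the right for comparisons that involve fed wild type. For *hda-3* with wild-type fasting, library size alone gave 0.29 in place of -0.05. Some values with TPM lay to the right in the other comparisons too, as for *hda-1* with fasting in labelled-deficient libraries (0.47 in place of 0.31).

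The remaining family genes, *hda-11* and *sir-2.3*, had few reads. *hda-11*, the class IV gene, had 2.37 ± 0.493 CPM in fasted and 1.26 ± 0.309 CPM in fed labelled-deficient libraries, against 2.39 ± 0.326 CPM in fasted and 1.69 ± 0.368 CPM in fed wild type (SD, n = 4 each). It was called for fasting in labelled-deficient libraries, with a log2 change of 0.91, with SE 0.23 and an edgeR adjusted p of 0.00454, and not in wild type, at 0.49 (SE 0.23; edgeR adjusted p 0.073). *sir-2.3* had 4.82 ± 0.576 CPM in fasted and 3.58 ± 0.5 CPM in fed labelled-deficient libraries, against 6.92 ± 0.554 CPM in fasted and 6.46 ± 1.73 CPM in fed wild type (SD, n = 4 each). Unlike its neighbour *sir-2.2*, *sir-2.3* was not called with fasting in wild type, at 0.10 (SE 0.17; edgeR adjusted p 0.649). The difference between the paralogues was not tested.

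Genes of the complexes in which class I deacetylases act were counted next, in a list of 21 from NuRD, MEC, SIN3, CoREST, NCoR and the SAEG factors. Between genotypes 14 were higher and 2 lower in labelled-deficient libraries in each feeding state. Over all tested genes 28.2% were higher and 29.3% lower when fasted, and 24.6% higher and 31.7% lower when fed. The median log2 difference of the list was 0.60 when fasted and 0.54 when fed, beside -0.04 and -0.08 for all tested genes. *sin-3*, the scaffold of the SIN3 complex, averaged 245 ± 14.2 CPM in fasted and 189 ± 20.1 CPM in fed labelled-deficient libraries, against 116 ± 3.36 CPM in fasted and 109 ± 12.8 CPM in fed wild type (SD, n = 4 each), with log2 differences of 1.08 and 0.79 (edgeR adjusted p 1.63e-08 and 1.24e-06). The PHD finger gene *athp-1* had the largest increase, at 1.17 when fasted and 1.12 when fed (edgeR adjusted p 1.19e-07 and 2.41e-07). *saeg-1*, a repressor gene that acts with the kinase EGL-4, had the largest decrease, at -0.57 when fasted and -0.94 when fed (edgeR adjusted p 7.15e-05 and 9.68e-08). The 10 germline markers moved in the same direction as the list, as given above.

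With fasting, 8 of these 21 genes were higher and none lower in labelled-deficient libraries, and 7 were higher and 3 lower in wild type. Over all tested genes fasting in labelled-deficient libraries gave 19.6% higher and 15.7% lower, and in wild type 30.4% higher and 30.6% lower. In wild type the share of the list that was higher is near that of all genes. *let-418*, the NuRD ATPase gene, averaged 266 ± 21.1 CPM in fasted and 192 ± 28.4 CPM in fed labelled-deficient libraries, against 146 ± 12.7 CPM in fasted and 102 ± 11.5 CPM in fed wild type (SD, n = 4 each). It was called in both genotypes, with log2 changes of 0.47 and 0.51 (edgeR adjusted p 0.00321 and 0.000735). In wild type *saeg-2* had the largest increase, at 0.86, and *saeg-1* the largest decrease, at -0.63 (edgeR adjusted p 1.43e-06 and 2.29e-05). With library size alone the wild-type split was 15 higher and 1 lower. The labelled-deficient split was 15 higher and none lower with TPM, 11 and none with library size alone, 13 and 2 with the replicate block, 6 and 1 with DESeq2 size factors, and 4 and 1 with no filter.

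**Figure D5:**
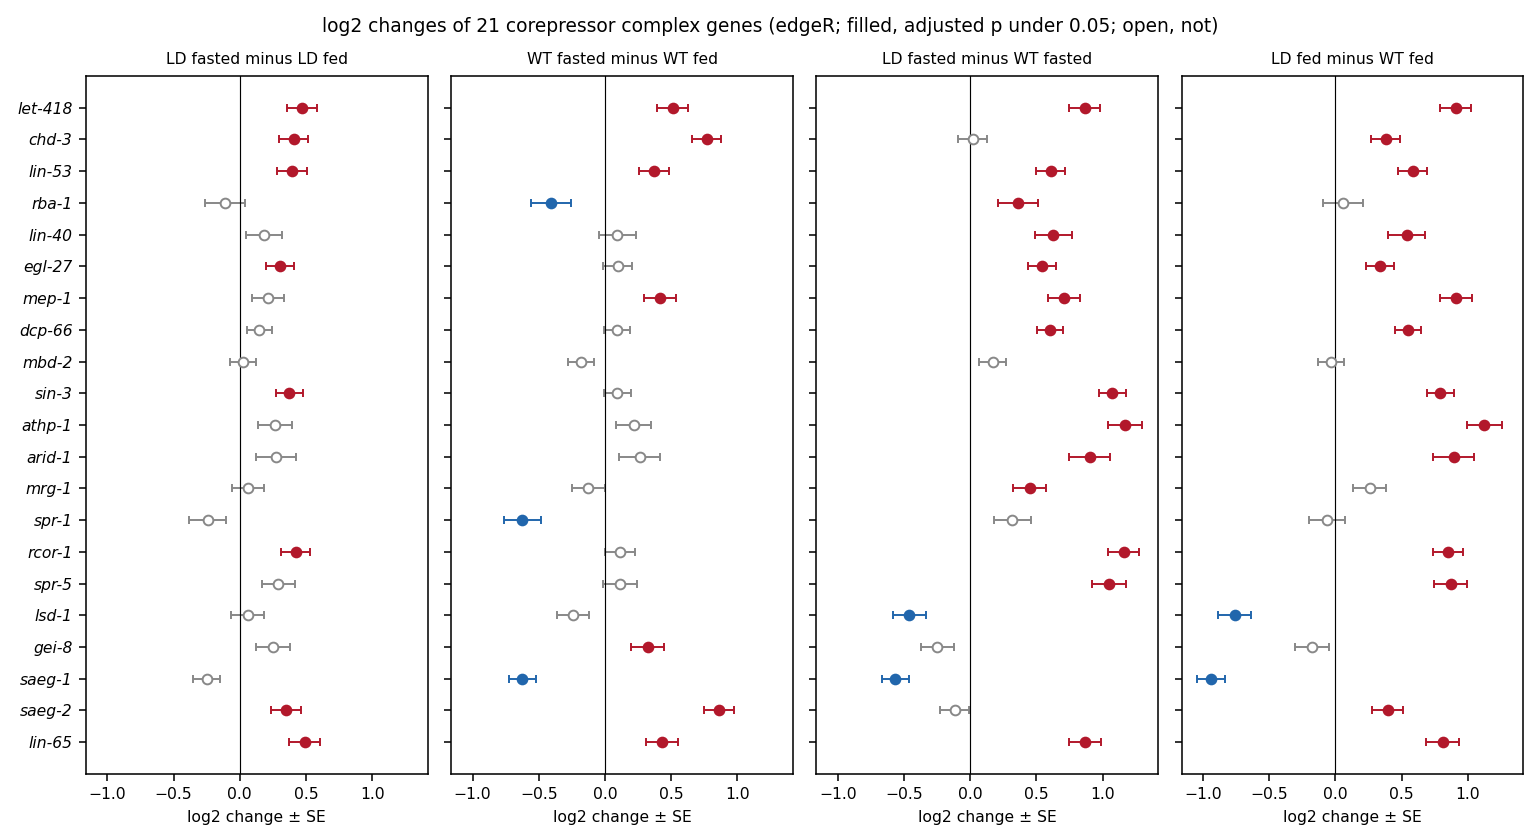
Log2 changes and standard errors from edgeR for 21 genes of deacetylase complexes in the 4 pairwise comparisons. Filled points have an adjusted p under 0.05, red higher and blue lower in the group named first. Between genotypes 14 genes were higher and 2 lower in labelled-deficient (LD) libraries in each feeding state, the 2 being *lsd-1* and *saeg-1*.

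The opposing enzymes, histone acetyltransferases and their cofactors, were covered by 11 tested genes, which include *cbp-1*, the target of the RNA interference that differs between the genotypes. Between fasted genotypes 8 were higher and none lower in labelled-deficient libraries, and between fed genotypes 6 were higher and 1 lower, or 10 higher and none lower with library size alone. *cbp-1* is 1 of the higher genes in each count, at 0.89 when fasted and 1.02 when fed (edgeR adjusted p 1.01e-05 and 1.9e-06). With fasting 3 were higher and none lower in labelled-deficient libraries, and 5 higher and 2 lower in wild type, beside 19.6% and 30.4% of all tested genes higher. The labelled-deficient count was 1 with DESeq2 size factors or no filter, 5 with the replicate block and 6 with TPM, all higher. *trr-1*, a TRRAP-like cofactor gene, had the largest increase in both states, at 1.41 when fasted and 1.16 when fed (edgeR adjusted p 2.99e-08 and 5.16e-07). *hat-1* was the 1 lower gene, at -0.41 when fed (edgeR adjusted p 0.00974). All 4 tested genes for readers of acetyl-lysine (*bet-1*, *bet-2*, *pbrm-1*, *nurf-1*) were higher in labelled-deficient libraries in both states. The background for both lists between genotypes was 28.2% higher and 29.3% lower when fasted, and 24.6% higher and 31.7% lower when fed. With fasting 3 of the 4 were higher in each genotype, but none was called in labelled-deficient libraries with DESeq2, with DESeq2 size factors or with no filter. Germline markers moved in the same direction as both lists between genotypes, and their part was not tested. *nurf-1*, a chromatin remodeller gene, was the largest, at 0.76 when fasted and 0.84 when fed (edgeR adjusted p 1.18e-05 and 4.09e-06).

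Sirtuins consume NAD, and 10 genes of NAD supply were counted. With fasting, labelled-deficient libraries had 1 higher and 2 lower, and 1 was higher and 6 lower in wild type. With library size alone labelled-deficient libraries had 4 higher and 2 lower, and there were 2 higher and 4 lower in wild type. Over all tested genes fasting in labelled-deficient libraries gave 19.6% higher and 15.7% lower, and in wild type 30.4% higher and 30.6% lower. *kynu-1*, the kynureninase gene of the pathway from tryptophan, averaged 19.4 ± 2.01 CPM in fasted and 51.4 ± 5.25 CPM in fed labelled-deficient libraries, against 44.2 ± 0.809 CPM in fasted and 458 ± 60.4 CPM in fed wild type (SD, n = 4 each). Its wild-type change was -3.37 (SE 0.12; edgeR adjusted p 2.69e-16). *nnt-1*, the gene of the nicotinamide nucleotide transhydrogenase, rose in both genotypes, at 1.16 in labelled-deficient libraries and 3.31 in wild type (edgeR adjusted p 3.31e-07 and 1.56e-15). Between genotypes 4 were higher and 4 lower in labelled-deficient libraries when fasted, and 2 higher and 6 lower when fed, or 4 and 4 with TPM. Between genotypes all tested genes gave 28.2% higher and 29.3% lower when fasted, and 24.6% higher and 31.7% lower when fed. *pnc-1*, the nicotinamidase gene of NAD salvage, was the largest fed increase, at 0.52 (edgeR adjusted p 0.00195).

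Of 8 tested genes for sirtuin partners and substrates described in worms, 4 were higher and 3 lower between genotypes when fasted, and 1 higher and 4 lower when fed, or 3 and 3 with library size alone. With fasting 2 were higher and none lower in labelled-deficient libraries, and 1 higher and 2 lower in wild type, or 3 and none with library size alone. *daf-16*, the FOXO gene, was higher when fasted, at 0.56 (SE 0.12; edgeR adjusted p 0.000327), and rose with fasting in labelled-deficient libraries, at 0.63 (SE 0.12; edgeR adjusted p 0.000284). *pccb-1*, a subunit gene of mitochondrial propionyl-CoA carboxylase, was lower, at -1.01 when fasted and -0.88 when fed (edgeR adjusted p 1.92e-07 and 1.28e-06). Genes tied to HDA-4 and tubulin acetylation numbered 7, of which 2 were higher and 4 lower between genotypes when fasted, and none higher and 6 lower when fed, or 1 and 2 with TPM. Fasting in labelled-deficient libraries gave 4 higher and 1 lower, and there were 2 higher and 4 lower in wild type, or 3 and 2 with library size alone. The labelled-deficient split was 2 higher and 1 lower with DESeq2 or its size factors, and 1 and 1 with no filter. Over all tested genes the shares were those given with the NAD genes. *mef-2*, whose product acts with HDA-4, had the largest fed decrease, at -1.27 (SE 0.12; edgeR adjusted p 9.02e-09). *mec-17*, a tubulin acetyltransferase gene, fell with fasting, at -1.13 in labelled-deficient libraries and -1.28 in wild type (edgeR adjusted p 6.55e-05 and 3.02e-06).

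Transcripts of the members were compared as shares of their gene's TPM. *hda-1*, *hda-2*, *hda-5* and *hda-10* have 1 transcript in the files, and *hda-3* had reads in 1 of 2. For the other 5 genes 14 transcripts passed a mean of 0.5 TPM. None of the 14 changed its share at a limma adjusted p under 0.05 in any pairwise comparison. The background was 2.49% and 9.55% of 9677 transcripts for fasting in labelled-deficient libraries and in wild type, and 7.74% and 3.96% between genotypes when fasted and when fed. At an unadjusted p under 0.05 there were 3 and 2 for fasting in labelled-deficient libraries and in wild type, and 3 and 1 between genotypes when fasted and when fed.

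*hda-6* is the member with the most varied transcripts. F41H10.6a.1 made up 41.2% ± 2.85 of its TPM in fasted and 50.1% ± 6.01 in fed labelled-deficient libraries, against 43.9% ± 2.61 in fasted and 48.9% ± 3.36 in fed wild type (SD, n = 4 each). F41H10.6c.1 made up 23.7% ± 3.47 in fasted and 31.6% ± 3.04 in fed labelled-deficient libraries, against 16.2% ± 5.46 in fasted and 25.1% ± 1.9 in fed wild type (SD, n = 4 each). F41H10.6d.1, annotated only at 5356612 to 5357359, made up 14.3% ± 11.5 in fasted and 11.9% ± 9.6 in fed labelled-deficient libraries. In fasted and fed wild type it made up 32.4% ± 4.84 and 21.9% ± 7.49 (SD, n = 4 each). The part of this transcript in the *hda-6* values with TPM was not tested. F41H10.6b.2 was estimated at 25.2%, 15.9%, 11.7% and 9.31% in the 4 fasted labelled-deficient libraries, while in each other group 3 libraries were listed at 0. Transcripts of 1 gene share sequence and their shares are model estimates, so a share listed at 0 can be a failed estimate.

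*sir-2.4* was stable, with C06A5.11a.1 at 90.6% ± 2.02 in fasted and 89.4% ± 1.80 in fed labelled-deficient libraries, and 88.8% ± 0.509 in fasted and 89.8% ± 1.64 in fed wild type (SD, n = 4 each). For *sir-2.2* both transcripts were lower in fed labelled-deficient libraries, by values given without a test. F46G10.7a.1 averaged 3.19 ± 0.720 TPM in fed labelled-deficient libraries and 6.77 ± 1.07 TPM in fed wild type, and F46G10.7c.1 averaged 6.88 ± 1.82 TPM and 12.2 ± 2.02 TPM in the same groups (SD, n = 4 each). *sir-2.1* was almost wholly R11A8.4a.1, at 94.5% to 100% as group means. *hda-4* was divided between C10E2.3a.1 and C10E2.3b.1, with C10E2.3b.1 at 62.3% ± 5.16 in fasted and 71.0% ± 10.1 in fed labelled-deficient libraries, against 63.8% ± 5.09 in fasted and 62.3% ± 3.87 in fed wild type (SD, n = 4 each).

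The genes most like each member over the 4 centred group means were found among 15830 other genes, as a description over 4 points. For *hda-1* they were F59E12.1, *istr-1* and *mrps-30*, at distances of 0.013 to 0.022 on the log2 scale. For *hda-6* they were *cct-8*, a subunit gene of the cytosolic chaperonin, *cyk-7* and *tars-1*, the threonyl-tRNA synthetase gene, at 0.034 to 0.043. For *hda-5* they were F56D6.17, *aat-1* and *zeel-1*, at 0.032 to 0.073. The nearest gene to *sir-2.2*, C01H6.4, lay at 0.059, farther than the nearest gene to any other member.

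Adjacent genes were looked at after the values of the members were known. Of the members, 5 have a protein-coding gene within 200 bases on the same strand, 6 such neighbours in all. *ing-3*, 119 bases from *hda-10*, resembled it, with 70.6 CPM in fasted and 55.9 CPM in fed labelled-deficient libraries, against 39.4 CPM in fasted and 47.4 CPM in fed wild type. Its genotype difference was 0.84 when fasted and 0.24 when fed (edgeR adjusted p 1.25e-05 and 0.129), and its interaction was 0.60 (edgeR adjusted p 0.0221). *swsn-7*, a chromatin remodelling gene 70 bases from *hda-2*, was higher in labelled-deficient libraries by 0.49 when fasted and 0.95 when fed (edgeR adjusted p 0.000546 and 1.72e-07). Unlike *hda-2* it rose with fasting in wild type, at 0.61 (edgeR adjusted p 5.42e-05). *pges-2*, 103 bases from *sir-2.1*, fell with fasting in both genotypes, at -0.68 in labelled-deficient libraries and -0.90 in wild type (edgeR adjusted p 9.59e-05 and 1.06e-06), where *sir-2.1* was not called. *fdps-1*, 93 bases from *hda-3*, was higher in labelled-deficient libraries by 0.77 when fasted and 0.41 when fed (edgeR adjusted p 5.43e-06 and 0.00423), and fell with fasting in wild type, at -0.43 (edgeR adjusted p 0.00303), where *hda-3* was not called. *mag-1*, 115 bases from *hda-3* on its other side, was called in none of the comparisons, at 0.38 when fasted and 0.23 when fed between genotypes (edgeR adjusted p 0.0783 and 0.295). C06A5.3, 151 bases from *sir-2.4*, was higher in labelled-deficient libraries by 0.65 when fasted and 0.28 when fed (edgeR adjusted p 3.65e-05 and 0.0411), where *sir-2.4* was not called when fasted and was lower when fed. With wild-type fasting C06A5.3 fell, at -0.35 (edgeR adjusted p 0.0118). Whether members and neighbours differ was not tested.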

How the data were processed

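RNA-seq of 16 libraries was quantified by the authors with Salmon 1.9.0, and reads were checked with FastQC 0.11.8 and MultiQC 1.19, per the submitters' processing notes, which also name the build WBcel235. The deposited gene table holds estimated counts for 21982 genes, and the deposited transcript files hold estimated counts and TPM for 35749 transcripts, per the file headers. Transcript counts summed to the gene table within 0.01 reads for all 21982 genes. Strand and bias settings are not given in the sources used here.

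Estimated counts were rounded to whole numbers, filtered by filterByExpr (15840 genes kept) and scaled by TMM. All 16 libraries entered a quasi-likelihood fit with 1 coefficient for each group (edgeR 4.0.16, R 4.3.3, robust), with 5 two-sided contrasts and Benjamini-Hochberg adjustment over all genes at 0.05. Transcript shares were tested as log2 ratios with a pseudocount of 0.1 TPM in limma 3.58.1. Gene TPM was tested as log2(TPM + 0.5), a scale that understates changes of low genes. Each SE was taken as |log2 change| / √F. Scripts were tested on simulated data. Alternatives were DESeq2 1.42.0, limma voom, DESeq2 size factors, library size alone, no filter, a replicate block, only the groups compared, TPM, and each library left out.

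The members and lists were chosen with earlier results of these data known. In each list only the called gene with the largest change per direction and comparison was eligible to be named, and *sin-3*, *let-418*, *lsd-1* and the neighbouring genes were named after their values were seen. Listed genes missing from the tests (*mys-3*, *gcn-5*, *tag-332*, *mccc-2*) were not used here. Sperm markers (3 of 8 tested) summed to 1.17 to 3.41 CPM per library, and early embryo markers to 23.6 to 113 CPM. Same-numbered libraries deviated together between fed genotypes (r 0.114 to 0.424 over genes). Libraries with different numbers were not compared, so whether the numbers pair libraries was not settled. The labels speak of independent experiments without tying a number to one. No 2 libraries of the same group were duplicates, since chi-square over its degrees of freedom was 5.75 to 85.1 for pairs within a group. Pairs from different groups were not checked for this.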

Additional observations from a re-analysis of the deposited data

Results flagged for a closer look

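Values that stood far from the other 3 libraries of a group by Dixon's 95% criterion were sought in 40 gene groups and 56 transcript groups, and 9 were found. Chance flags about 1 in 20 groups of normally spread values. Where 3 libraries tie at 0 or 100%, any different value is flagged, so that rate does not apply. *hda-4* was low in fasted wild-type replicate 1, at 24.3 CPM, and *hda-5* was low in fed labelled-deficient replicate 3, at 12.7 CPM. Neither library changed the call of its gene when left out. The other 7 were transcript shares. R11A8.4a.1 of *sir-2.1* stood at 99.7% in fasted labelled-deficient replicate 1 and at 99.7% in fed wild-type replicate 1, where the other libraries of each group were at 100%. R11A8.4a.2 stood at 18% in fasted wild-type replicate 3 and at 0 in the other 3. F41H10.6b.2 of *hda-6* stood at 15.2% in fed labelled-deficient replicate 4, at 10.1% in fasted wild-type replicate 2 and at 8.67% in fed wild-type replicate 4, with 0 in the rest of each group. F41H10.6d.2 stood at 0.817% in fed wild-type replicate 4 and at 0 in the other 3.

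The fasting change differed between genotypes by the interaction test for *hda-6* at 0.58, *hda-10* at 0.63 and *sir-2.2* at 0.77 on the log2 scale (edgeR adjusted p 0.0134, 0.0419 and 0.00526).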

How the results depend on the processing

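Of 50 member results (10 genes, 5 comparisons), 28 stayed on the same side of the threshold, with any called direction kept, under all settings and left-out libraries, and no result reversed when a library was left out. Values that reversed were *hda-3* with wild-type fasting, at 0.29 with library size alone and 0.27 with TPM, and, with TPM, *hda-6* with wild-type fasting at 0.44, *hda-4* between fed genotypes at 0.044 and *sir-2.4* between fed genotypes at 0.10. In these 2 comparisons both scalings moved the median of all genes upward. Genes called for the interaction numbered 0 with library size alone and 1 with TPM, against 3. With TPM 5 were called for fasting in labelled-deficient libraries, against 2, and 7 in wild type, against 4. The shares of all tested genes called in these fits are not given here, so the counts are not a result about the members. For transcripts, 1 was called with wild-type fasting at a pseudocount of 1 and 1 at a mean of at least 2 TPM, both F41H10.6c.1, and 1 between fasted genotypes at a pseudocount of 1, F41H10.6d.2, against 0. Leaving out 1 library gave 2 to 3 and 3 to 4 genes for fasting in labelled-deficient libraries and in wild type, 7 to 8 between genotypes in each state, and 2 to 3 for the interaction. It gave 0 to 1 transcripts, and 0 between fed genotypes.

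With the replicate number as a block, 10 members were called between fed genotypes, against 8. In the other pairwise comparisons the lowest r over genes was -0.047 to 0.075. The block called 3 and 5 members for fasting in labelled-deficient libraries and in wild type, 8 between fasted genotypes and 4 for the interaction. The share of all tested genes called with the block is not given here, so these counts are not a result about the members. *sir-2.2*, with the fewest reads, is limited most by depth.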
